A study of Mus musculus with 8 samples.

Results

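Glycolysis, glucose uptake and lactate export were examined through 36 genes chosen by symbol, which covered the glucose transporters, the hexokinases, the upper and lower steps of the pathway, the PFKFB enzymes that regulate it, lactate formation and transport, the pyruvate dehydrogenase gate and glycogen. Of these, 35 had a value among the 24625 genes and transcripts on the arrays, each on a single measurement, and Eno1, which encodes the main enolase, was not analysed here. The values came from neutrophils of the lungs of wild type mice aged 6 to 12 weeks. The left lung had received, by way of the trachea, 2.3 µl per g of body weight of either Streptococcus pneumoniae in suspension (SP, 4 samples) or phosphate-buffered saline (PBS, 4 samples). After 24 h, cells carrying Ly6G, a surface protein of mouse neutrophils, were captured from lung digests with magnetic beads, and total RNA of each sample was run on 1 Affymetrix array. The PBS group is therefore a model of the neutrophils present in a lung without bacteria, and the study's methods describe the purity of the captured cells for the SP group and not for the PBS group. The study describes each sample as that of a mouse, while the labels identify no mouse, and the p-values measure the spread between these 8 samples.

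Glycolysis breaks glucose down to pyruvate and yields ATP without oxygen. Neutrophils hold few mitochondria and are known to rely on this pathway, and on stored glycogen, for movement, phagocytosis and the release of reactive oxygen species in tissue where oxygen and glucose can run low. Most steps are served by several related enzymes whose genes are regulated separately, so that a change of isoform can alter the speed of a step, its sensitivity to inhibitors or the fate of pyruvate.

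Values are given in log2 units, in which a difference of 1 is 2-fold, and a signal on these arrays has no absolute zero. Y-linked genes, which served as a measure of background, lay between 4.33 and 4.90. A gene was called when its adjusted p was at most 0.05 by limma with Benjamini-Hochberg adjustment over all 24625 measurements, and the difference is always SP minus PBS.

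Samples of cells captured from the lungs of SP mice held more mRNA of all 3 hexokinases, of the phosphofructokinase subunit Pfkl and of Pfkfb3. They held less of the lactate dehydrogenase subunit Ldhb, of Pdk2, Pfkfb2 and Aldoc and of the glucose transporter Slc2a3. Because RNA was pooled over all captured cells of a sample, fewer cells of a type and less RNA per cell cannot be told apart in any of these values. Of the 35 genes, 21 (60.0%) were called, against 44.1% of all measurements. The 8 that rose made up 22.9%, close to the 21.5% of all measurements that rose, and the 13 that fell made up 37.1%, against 22.6%. At 2-fold or more, 10 genes (28.6%) were called, against 17.6% of all measurements. The 4 of these that rose (11.4%, against 6.37%) were Hk2, Hk3, Pfkl and Pfkfb3, and the 6 that fell (17.1%, against 11.3%) were Slc2a3, Pfkfb2, Aldoc, Ldhb, Pdk2 and Pdk4. These shares describe the genes chosen, and no test was run on them.

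In 8 genes every SP value lay above every PBS value (22.9%, against 27.2% of all measurements), and in 7 every SP value lay below every PBS value, against 21.8% of all measurements, so the share of genes without overlap was near that of all measurements. The median difference over the 35 genes was -0.28, against 0.10 over all measurements, with 13 genes above 0 and 22 below. SP arrays had lower medians (5.78 to 5.91) than PBS arrays (6.06 to 6.20). Centring each array on its median raised every difference by 0.28, as much as the members' median lay below 0. It turned the split of 8 higher and 13 lower into 10 higher and 7 lower. It also moved the median difference over all measurements from 0.10 to 0.38, further from 0, and the shares of all measurements called with centred arrays are not given here. Small differences in the account of each step are therefore open to scaling, while the genes called at 2-fold kept their direction under every setting run.

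**Figure D1:**
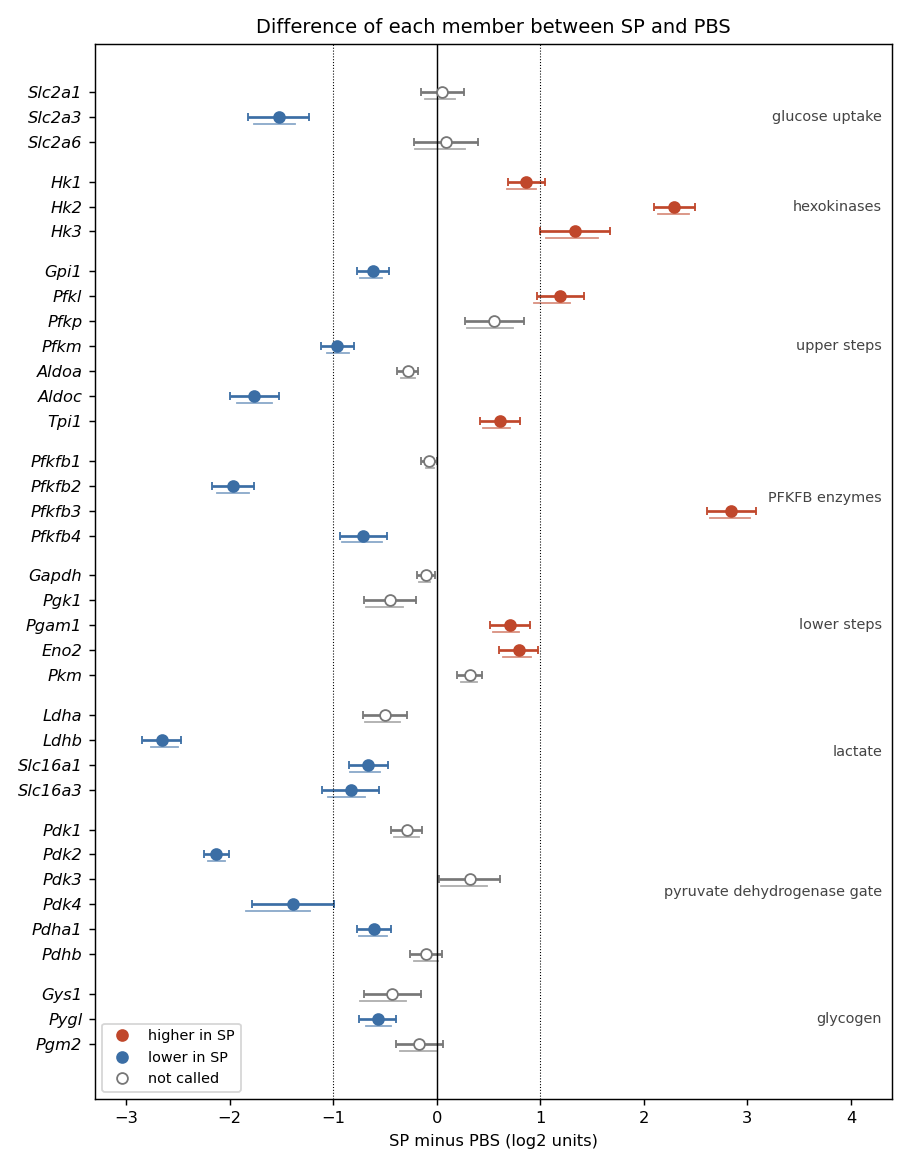
Difference between SP and PBS in log2 units (horizontal axis) for each of the 35 genes, ordered by their step in the pathway, with bars for 1 SE of the fit and a thinner line below each point for the range of the difference with each array left out in turn. Filled red points are genes called higher and filled blue points genes called lower, open points were not called, and dotted lines mark 2-fold. The hexokinases lie to the right of 0 as a group, the lactate genes and the glycogen genes to the left (Pgm2 moves to 0.11 with centred arrays), and the PFKFB enzymes on both sides.

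The identity of the captured cells was checked with marker lists, whose counts are to be read beside the 21.5% of all measurements that rose and the 22.6% that fell. Neutrophil markers were bright in both groups, with a mean level of the 10 genes between 12.15 and 12.41 in PBS and between 11.51 and 12.76 in SP, and 3 of them fell and none rose. Markers of epithelium, endothelium and B cells were well above background in PBS, and most of them fell. All 5 markers of ciliated epithelium with a value fell, and their mean level ranged from 9.64 to 10.53 in PBS and from 6.79 to 7.62 in SP. All 4 of club cells (12.88 to 13.27 in PBS, 10.78 to 11.52 in SP), 4 of 5 of alveolar type 1 cells (9.85 to 10.70, 8.27 to 9.32), all 6 of alveolar type 2 cells (12.27 to 12.76, 10.25 to 11.70), 5 of 7 of endothelium (10.49 to 11.40, 9.03 to 10.12), 2 of 6 of fibroblasts (8.69 to 9.55, 7.60 to 9.71) and all 5 of B cells (8.10 to 9.07, 6.03 to 7.37) fell as well, with no rise in these lists. Of 6 alveolar macrophage markers 3 fell and 1 rose, of 6 monocyte and macrophage markers 2 rose, of 6 T cell markers 1 rose, and none of 5 erythroid markers was called. The part of these cells in the differences of the glycolytic genes was not tested.

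Promoter sequences are shown for the genes with the largest changes, Hk2, Pfkfb3 and Ldhb, and for Ldha, the relative of Ldhb. The windows run from 250 bases before to 49 bases after the first base of a RefSeq transcript (GRCm38.p6), 5′ to 3′ on the strand of the gene, and capitals mark ACGTG and GCGTG on either strand, the core letters of the element that hypoxia-inducible factors bind. The Hk2 window is chr6:82774405-82774704 on the minus strand, and it held ACGTG 2 times.

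Hk2: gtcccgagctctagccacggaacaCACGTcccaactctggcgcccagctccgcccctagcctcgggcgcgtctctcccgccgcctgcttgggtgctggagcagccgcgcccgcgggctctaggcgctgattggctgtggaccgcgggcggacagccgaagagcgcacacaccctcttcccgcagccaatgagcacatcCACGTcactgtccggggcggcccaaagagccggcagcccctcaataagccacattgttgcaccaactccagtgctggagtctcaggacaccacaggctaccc

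Pfkfb3 has 2 start sites with a window, chr2:11553880-11554179 and chr2:11502041-11502340, both on the minus strand. The second also held CACGTG, the letters of the E box that MYC and related factors bind, which contains ACGTG on both strands.

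Pfkfb3, first window: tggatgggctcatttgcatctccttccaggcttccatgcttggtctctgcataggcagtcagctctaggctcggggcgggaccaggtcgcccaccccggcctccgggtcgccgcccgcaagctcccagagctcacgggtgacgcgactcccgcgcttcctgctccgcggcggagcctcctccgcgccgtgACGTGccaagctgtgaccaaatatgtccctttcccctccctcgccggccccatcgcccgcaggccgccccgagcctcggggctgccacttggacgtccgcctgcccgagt
Pfkfb3, second window: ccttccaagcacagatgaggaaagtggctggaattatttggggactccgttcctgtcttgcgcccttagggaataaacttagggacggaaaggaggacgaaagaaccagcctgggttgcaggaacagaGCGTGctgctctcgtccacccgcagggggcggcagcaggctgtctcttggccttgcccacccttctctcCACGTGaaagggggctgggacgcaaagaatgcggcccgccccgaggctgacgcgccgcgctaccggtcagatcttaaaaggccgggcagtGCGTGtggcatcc

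The Ldha window shown, 1 of 2, is chr7:46845554-46845853 on the plus strand, and the Ldhb window is chr6:142507908-142508207 on the minus strand. Ldha held ACGTG 5 times and GCGTG 2 times, with CACGTG 2 times among them, while Ldhb held GCGTG 1 time and no ACGTG. The other Ldha window, chr7:46846832-46847131, held GCGTG 2 times and no ACGTG either.

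Ldha: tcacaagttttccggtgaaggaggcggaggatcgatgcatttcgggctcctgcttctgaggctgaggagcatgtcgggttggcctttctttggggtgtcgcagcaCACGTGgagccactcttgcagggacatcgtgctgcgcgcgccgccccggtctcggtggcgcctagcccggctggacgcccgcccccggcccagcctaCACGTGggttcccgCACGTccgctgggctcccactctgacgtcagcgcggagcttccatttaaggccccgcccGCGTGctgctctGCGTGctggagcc
Ldhb: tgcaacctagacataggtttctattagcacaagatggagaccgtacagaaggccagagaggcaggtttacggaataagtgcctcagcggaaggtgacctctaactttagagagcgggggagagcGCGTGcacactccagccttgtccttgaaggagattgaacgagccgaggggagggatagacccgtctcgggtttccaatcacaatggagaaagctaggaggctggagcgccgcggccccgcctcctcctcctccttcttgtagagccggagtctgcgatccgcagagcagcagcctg

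Of the 35 genes, 34 had 51 such windows, some of which overlap where a gene has several starts. ACGTG was found in 25 windows (49.0%), against 21.7% of the 18947 windows of all genes on the arrays with a window. GCGTG was found in 26 (51.0%), against 40.5%, and CACGTG in 6 (11.8%), against 8.24%. ACGTG was present in 6 of 10 windows of genes that rose, 9 of 19 of genes that fell and 10 of 22 of genes that were not called. A match of letters is a description of the window and says nothing of whether a factor bound there in these cells.

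Glucose enters cells through facilitative transporters of the Slc2a family. Slc2a3, which encodes the high-affinity transporter GLUT3, stood at 12.28, 11.73, 12.75 and 12.63 in PBS replicates 1 to 4 and at 10.36, 10.65, 11.55 and 10.73 in SP replicates 1 to 4. Every SP value lay below every PBS value, and the nearest to each other were PBS replicate 2 and SP replicate 3. Slc2a3 fell by 1.53 log2 units (SE 0.30, 2.88-fold lower, adjusted p = 0.00386 by limma). Neither of the other transporters was called. Slc2a1, which encodes GLUT1, stood at 12.27 ± 0.43 in PBS and 12.32 ± 0.20 in SP (SD, n = 4 each), with a difference of 0.05 (SE 0.21, adjusted p = 0.834) that was -0.18 after a second quantile normalization and -0.12 without PBS replicate 2. Slc2a6, which encodes GLUT6, stood at 11.49 ± 0.70 and 11.58 ± 0.09, with a difference of 0.09 (SE 0.31, adjusted p = 0.809) that was -0.14 after a second quantile normalization and -0.21 without PBS replicate 2.

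All 3 hexokinases, which trap glucose in the cell by phosphorylating it, rose. Hk2, the inducible isoform bound to mitochondria, stood at 6.74, 6.85, 7.44 and 7.04 in PBS and at 9.18, 9.05, 9.78 and 9.24 in SP. The groups were more than 1 log2 unit apart, with SP replicate 3 the highest. Hk2 rose by 2.29 log2 units (SE 0.20, 4.91-fold, adjusted p = 6.21e-05 by limma). Hk3, the isoform typical of myeloid cells, stood at 10.14, 9.46, 10.96 and 10.61 in PBS and at 11.96, 12.00, 11.12 and 11.42 in SP. The groups did not overlap, but PBS replicate 3 and SP replicate 3 were close. Hk3 rose by 1.33 log2 units (SE 0.33, 2.52-fold, adjusted p = 0.0129). Hk1, the isoform found in most tissues, rose less, from 9.48 ± 0.13 to 10.35 ± 0.38 (SD, n = 4 each), a difference of 0.86 (SE 0.18, 1.82-fold, adjusted p = 0.00517) without overlap. These 3 calls held under every setting run.

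**Figure D2:**
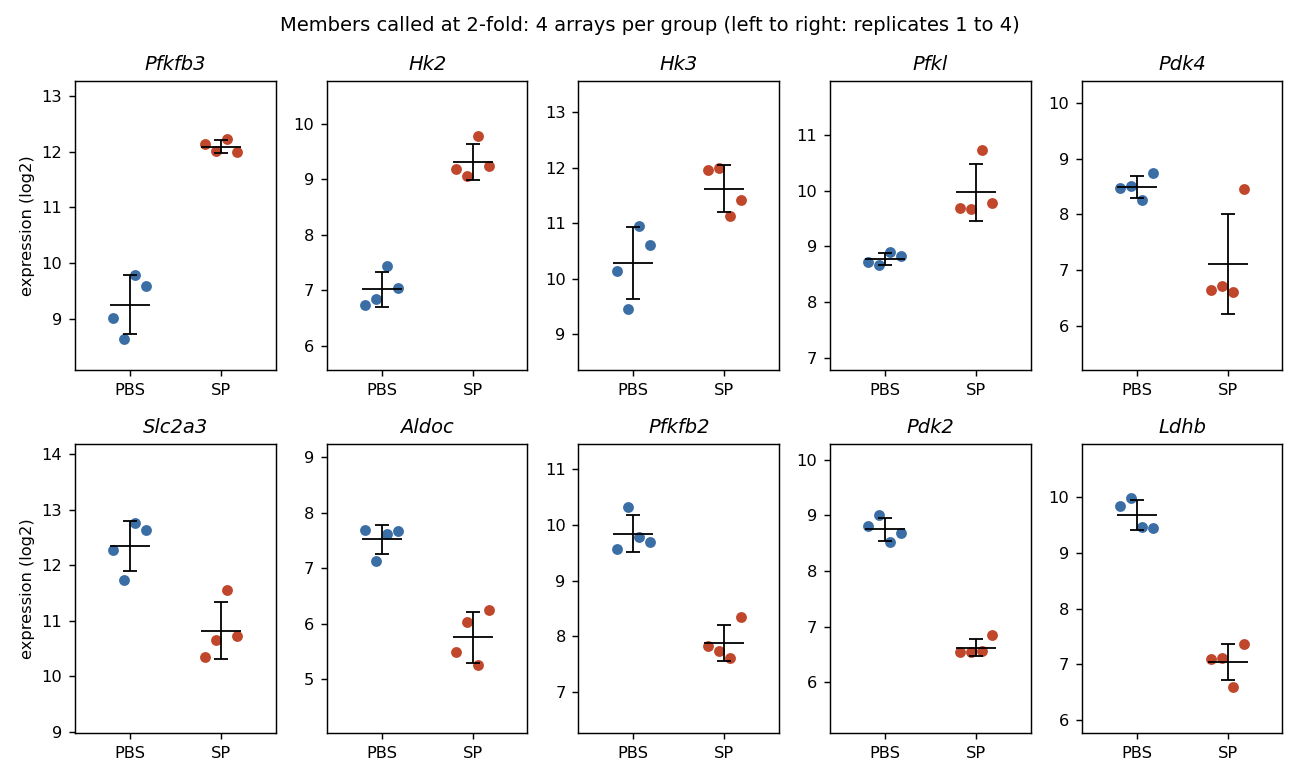
Expression in log2 units (vertical axes, each spanning its own range) of the 10 genes called at 2-fold or more, with 1 point per array, replicates 1 to 4 from left to right in each group, the mean as a long line and the SD as bars. The groups are apart in each panel except that of Pdk4, where SP replicate 4 (8.46) lies among the PBS values. SP replicate 3 is well above the other SP arrays for Pfkl (10.73).

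Of the 7 genes of the upper steps, 2 rose, 3 fell and 2 were not called, where 21.5% of all measurements rose and 22.6% fell. Phosphofructokinase, the committed step, is built from Pfkl, Pfkp and Pfkm subunits. Pfkl, the liver-type subunit, stood at 8.72, 8.67, 8.90 and 8.83 in PBS and at 9.69, 9.68, 10.73 and 9.78 in SP. Every SP value lay above every PBS value, and SP replicate 3 was about 1 log2 unit above the other SP arrays. Pfkl rose by 1.19 log2 units (SE 0.23, 2.29-fold, adjusted p = 0.00364), and by 0.94 without SP replicate 3, which is under 2-fold. Pfkm, the muscle-type subunit, was dim and fell from 6.09 ± 0.31 to 5.12 ± 0.17 (SD, n = 4 each), a difference of -0.96 (SE 0.16, 1.95-fold lower, adjusted p = 0.00172) without overlap. Pfkp, the platelet-type subunit, stood at 9.37 ± 0.56 and 9.92 ± 0.35 and was not called (0.56, SE 0.29, adjusted p = 0.138), but was called with centred arrays (0.84, adjusted p = 0.0296). Its difference was smaller with array weights (0.25), without PBS replicate 2 (0.29) and with PBS replicate 2 and SP replicate 3 both left out (0.12).

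The aldolases split the sugar, and their genes moved unequally. Aldoc, the isoform known from brain, stood at 7.68, 7.12, 7.61 and 7.67 in PBS and at 5.49, 6.03, 5.26 and 6.25 in SP. The groups did not overlap, and PBS replicate 2 was the lowest of its group by a wide gap. Aldoc fell by 1.76 log2 units (SE 0.23, 3.39-fold lower, adjusted p = 0.000540). Aldoa, the isoform of most tissues, stood at 12.55 ± 0.09 and 12.27 ± 0.18 and was not called (-0.28, SE 0.10, adjusted p = 0.0535). It was called without SP replicate 3 (-0.35, adjusted p = 0.0154), and its difference vanished with centred arrays (0.0010). Gpi1, the isomerase before phosphofructokinase, fell by 0.61 log2 units from 12.69 ± 0.15 to 12.07 ± 0.30 (SE 0.16, adjusted p = 0.0137) without overlap, and this call was lost with centred arrays (-0.33, adjusted p = 0.115). Tpi1, which interconverts the products of aldolase, rose by 0.61 log2 units from 9.52 ± 0.25 to 10.14 ± 0.35 (SE 0.19, adjusted p = 0.0320) without overlap. Its call was lost without PBS replicate 1, 2 or 3 or SP replicate 1 (adjusted p 0.0507 to 0.0737), by the methods' t-test (0.0630) and after a second quantile normalization (0.53, adjusted p = 0.0586), and its difference was 0.38 with array weights (adjusted p = 0.0227).

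The PFKFB enzymes make and remove the sugar bisphosphate that activates phosphofructokinase, and isoforms differ in the balance of these activities. They changed in opposite directions. Pfkfb3, whose product favours synthesis of the activator, stood at 9.01, 8.63, 9.78 and 9.59 in PBS and at 12.14, 12.02, 12.23 and 11.99 in SP. All SP arrays lay within a narrow band far above the PBS arrays. Pfkfb3 rose by 2.85 log2 units (SE 0.24, 7.19-fold, adjusted p = 5.21e-05), the largest rise among the 35 genes. Pfkfb2, the isoform known from heart, stood at 9.58, 10.32, 9.79 and 9.69 in PBS and at 7.83, 7.73, 7.61 and 8.34 in SP. PBS replicate 2 was the highest PBS array and SP replicate 4 the highest SP array, and the groups did not overlap. Pfkfb2 fell by 1.97 log2 units (SE 0.20, 3.91-fold lower, adjusted p = 0.000150). Pfkfb4 fell from 10.43 ± 0.50 to 9.72 ± 0.12 (-0.71, SE 0.23, adjusted p = 0.0348) with overlap. That call was lost with centred arrays (-0.43, adjusted p = 0.141), by the methods' t-test (0.0697) and without any 1 array except PBS replicate 2 and SP replicate 3 (0.0578 to 0.0872). Pfkfb1, the liver isoform, lay near background at 5.18 ± 0.10 and 5.10 ± 0.06 (-0.07, SE 0.08, adjusted p = 0.421), with a difference of 0.21 in centred arrays (adjusted p = 0.0552).

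Of the 5 genes of the lower steps, 2 rose and 3 were not called, where 21.5% of all measurements rose and 22.6% fell. Pgam1, the phosphoglycerate mutase, rose from 10.63 ± 0.33 to 11.34 ± 0.28 (SD, n = 4 each), a difference of 0.71 (SE 0.19, 1.64-fold, adjusted p = 0.0187) without overlap, and by 0.44 with array weights (adjusted p = 0.0184). Eno2, an enolase known as a neuronal marker, was dim in PBS at 5.12 ± 0.26 and rose to 5.92 ± 0.33 (0.79, SE 0.19, 1.73-fold, adjusted p = 0.00987) without overlap. Gapdh, often taken as a reference gene, stood at 12.73 ± 0.08 and 12.63 ± 0.14 (-0.10, SE 0.09, adjusted p = 0.353), and at a difference of 0.18 with centred arrays and -0.29 after a second quantile normalization, which called it (adjusted p = 0.0159). Pgk1, which forms ATP, stood at 11.67 ± 0.26 and 11.22 ± 0.51 (-0.45, SE 0.25, adjusted p = 0.164), without SP replicate 3 at -0.69 (adjusted p = 0.0143) and with centred arrays at -0.17 (adjusted p = 0.576). Pkm, pyruvate kinase, stood at 11.78 ± 0.18 and 12.10 ± 0.17 (0.32, SE 0.12, adjusted p = 0.0588) and was called with centred arrays (0.60, adjusted p = 0.00777) and without PBS replicate 3 (0.39, adjusted p = 0.0412), while its difference was 0.073 after a second quantile normalization (adjusted p = 0.550). RefSeq names pseudogenes after 6 of the 35 genes (Aldoa, Gapdh, Pgk1, Pgam1, Ldha and Ldhb), and how far the probes separate these copies was not examined.

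The lactate genes were lower or not called. Ldhb, the lactate dehydrogenase subunit of oxidative tissues, stood at 9.85, 9.995, 9.48 and 9.46 in PBS and at 7.09, 7.12, 6.59 and 7.36 in SP. The groups were about 2 log2 units apart, with PBS replicate 2 the highest and SP replicate 3 the lowest of all arrays. Ldhb fell by 2.65 log2 units (SE 0.19, 6.29-fold lower, adjusted p = 2.49e-05), the largest fall among the 35 genes. Ldha, the subunit linked to lactate production, stood at 12.36, 12.19, 12.54 and 12.40 in PBS and at 11.41, 11.61, 12.45 and 12.01 in SP. SP replicate 3 lay among the PBS values and the other SP arrays below them. Ldha was not called (-0.50, SE 0.21, adjusted p = 0.0836), but was without SP replicate 3 (-0.70, adjusted p = 0.00876) and after a second quantile normalization (-0.72, adjusted p = 0.0188), and its difference was -0.22 with centred arrays (adjusted p = 0.388). The monocarboxylate transporters move lactate across the membrane. Slc16a3, which encodes the exporter MCT4, fell from 12.05 ± 0.50 to 11.22 ± 0.39 (-0.83, SE 0.28, adjusted p = 0.0400) with overlap, and lost its call with centred arrays (-0.55, adjusted p = 0.112), by the methods' t-test (0.0793) and without any 1 array except PBS replicate 2 and SP replicate 3 (0.0527 to 0.0994). Slc16a1, which encodes MCT1, fell from 9.998 ± 0.18 to 9.34 ± 0.38 (-0.66, SE 0.19, adjusted p = 0.0218) with overlap, and lost its call with centred arrays (-0.38, adjusted p = 0.0771) and without PBS replicate 1 or 3 or SP replicate 1 or 2 (0.0512 to 0.0626).

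The pyruvate dehydrogenase kinases switch off the complex that feeds pyruvate into the citrate cycle. Pdk2, the most widely expressed kinase, stood at 8.82, 9.001, 8.52 and 8.68 in PBS and at 6.55, 6.54, 6.55 and 6.85 in SP. SP replicates 1 to 3 were almost equal, SP replicate 4 was higher, and all lay far below PBS. Pdk2 fell by 2.13 log2 units (SE 0.12, 4.38-fold lower, adjusted p = 1.07e-05), with the smallest adjusted p of the 35 genes. Pdk4, the kinase induced by fasting and fatty acids, stood at 8.46, 8.51, 8.26 and 8.73 in PBS and at 6.64, 6.71, 6.60 and 8.46 in SP. SP replicate 4 lay among the PBS values, and the other SP arrays were well below them. Pdk4 fell by 1.39 log2 units (SE 0.40, 2.62-fold lower, adjusted p = 0.0225), and by 1.84 without SP replicate 4 (adjusted p = 5.62e-05). The methods' t-test did not call it (adjusted p = 0.0547), nor did limma without PBS replicate 1 or 4 or SP replicate 1, 2 or 3 (0.0515 to 0.0625).

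The other kinases were not called. Pdk1, a target of hypoxia-inducible factor, stood at 6.91 ± 0.14 and 6.62 ± 0.30 (-0.29, SE 0.15, adjusted p = 0.139), at -0.41 without SP replicate 3 (adjusted p = 0.0293) and at 0.18 after a second quantile normalization. Pdk3 stood at 9.65 ± 0.35 and 9.97 ± 0.58 (0.32, SE 0.29, adjusted p = 0.374), with a difference of 0.041 without SP replicate 3. Of the complex itself, Pdha1, the catalytic subunit that the kinases phosphorylate, fell from 9.46 ± 0.13 to 8.86 ± 0.34 (-0.60, SE 0.17, adjusted p = 0.0193) with overlap, and lost its call with centred arrays (-0.32, adjusted p = 0.0687) and without PBS replicate 1 or SP replicate 1 (0.0547 and 0.0527). Its partner Pdhb stood at 7.92 ± 0.19 and 7.81 ± 0.28 (-0.10, SE 0.16, adjusted p = 0.588), with a difference of 0.18 in centred arrays.

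Of the glycogen genes, Pygl, the phosphorylase that releases stored glucose, fell from 11.72 ± 0.32 to 11.15 ± 0.24 (-0.57, SE 0.18, adjusted p = 0.0311) with overlap. This call was lost with centred arrays (-0.29, adjusted p = 0.221), by the methods' t-test (0.0604) and when leaving out PBS replicate 3 or 4 or SP replicate 1, 2 or 4 (0.0570 to 0.0799). Gys1, glycogen synthase, was almost equal on the PBS arrays, at 8.68, 8.66, 8.66 and 8.58, and stood at 7.83, 7.85, 9.15 and 8.04 in SP. SP replicate 3 lay above all PBS values and the other SP arrays below them. Gys1 was not called (-0.43, SE 0.27, adjusted p = 0.215), but was without SP replicate 3 (-0.74, adjusted p = 0.000277), and its difference was -0.15 with centred arrays (adjusted p = 0.646). Pgm2, a phosphoglucomutase, stood at 10.61 ± 0.48 and 10.44 ± 0.19 (-0.17, SE 0.23, adjusted p = 0.543), and its difference was 0.11 in centred arrays.

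Whether related genes changed unequally was asked with the ratio of their values within an array. Adding a constant to all log2 values of an array, as centring does, cannot alter this ratio. A second quantile normalization can alter it. With that setting the difference of Aldoa went from -0.28 to -0.50 and that of Aldoc from -1.76 to -1.52. All 24 pairs within 8 families were compared by exact permutation of the group labels (70 arrangements, two-sided). In 14 pairs the groups did not overlap, and each reached an exact p of 0.0286, the smallest value the design allows, with an adjusted p of 0.0490 over the 24 pairs. The ratio of Pfkfb2 to Pfkfb3 fell by 4.81 log2 units, the largest change, with means of 0.59 ± 0.77 on the PBS arrays and -4.22 ± 0.41 on the SP arrays (SD, n = 4 each). The ratio of Pfkfb3 to Pfkfb4 rose by 3.55 and was steady within groups, at -1.18 ± 0.08 and 2.38 ± 0.12. The ratio of Pfkfb2 to Pfkfb4 changed by -1.26. The ratios of Pfkfb1 to Pfkfb2 and to Pfkfb3 are among the 14, but Pfkfb1 lay near background, so they carry the changes of Pfkfb2 and Pfkfb3 over again.

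Pairs of 6 further families passed as well, and the monocarboxylate transporters did not. The ratio of Ldha to Ldhb rose by 2.15 log2 units, at 2.51, 2.19, 3.07 and 2.95 in PBS and at 4.32, 4.49, 5.86 and 4.65 in SP. Because different probes are compared, the change of this ratio can be read and its level cannot. Aldoa gained on Aldoc by 1.48. The ratios of Pfkl and of Pfkp to Pfkm rose by 2.16 and 1.52, but Pfkm lay near background in SP (4.93 to 5.30), which limits the sizes of these changes. Among hexokinases, the ratio of Hk1 to Hk2 changed by -1.43, so that Hk2 gained the more. Among transporters, Slc2a1 gained on Slc2a3 by 1.58, and the ratio of Slc2a3 to Slc2a6 changed by -1.62. Among kinases, Pdk1 gained on Pdk2 by 1.84, and the ratio of Pdk2 to Pdk3 changed by -2.45.

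The other 10 pairs overlapped and did not pass. They include Hk2 against Hk3 (0.96, adjusted p = 0.121 by the exact permutation test), Pfkl against Pfkp (0.64, adjusted p = 0.144) and Slc16a1 against Slc16a3 (0.17, adjusted p = 0.716), along with every pair that holds Pdk4. The adjusted p of 0.0490 needs many pairs at the smallest p. Without SP replicate 1, 2 or 3 none of the 24 pairs passed, while 14 or 15 passed without any other array.

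**Figure D3:**
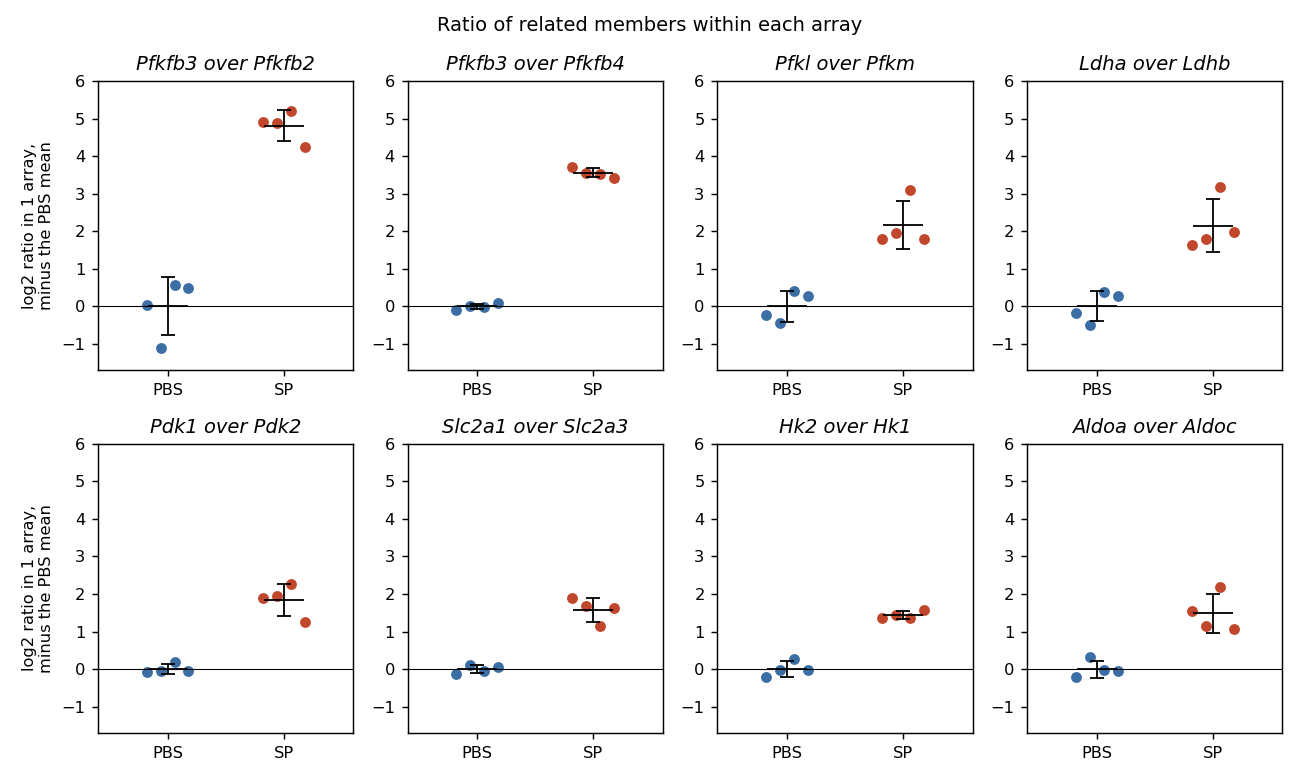
Log2 ratio of 2 related genes within an array, minus the mean of the PBS arrays (vertical axis, same scale in all panels), for 8 pairs in PBS and SP, with 1 point per array, the mean as a long line and the SD as bars. The pairs were picked from the 14 whose groups did not overlap, and each is written in the order in which its ratio rises. The SP arrays therefore lie above the PBS arrays in every panel, from a mean change of 1.43 for Hk2 over Hk1 to 4.81 for Pfkfb3 over Pfkfb2.

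Arrays of a group differed in the same sense over many of the 35 genes. PBS replicate 2 was the lowest PBS array for 21 of them and the highest for 8, among them Pfkm, Pfkfb2, Ldhb and Pdk2, and PBS replicate 3 was the highest for 19. SP replicate 3 was the highest SP array for 22. SP replicate 4 was the highest for 9, of which 8 were genes that fell (Pfkm, Pfkfb2, Aldoc, Ldhb, Slc16a1, Pdk2, Pdk4 and Pdha1). Marker lists varied along with them. PBS replicate 2 had the highest mean level of ciliated, club, alveolar type 1, alveolar type 2 and endothelial markers among PBS arrays. SP replicate 4 had the highest level of club, alveolar type 1, alveolar type 2, endothelial and fibroblast markers among SP arrays, and SP replicate 3 had the lowest level of these and of ciliated markers and the highest of neutrophil markers (12.76). The neutrophil markers with the widest gaps there were Camp (10.94, against 7.60 to 8.17 on the other SP arrays), Ngp (13.34, 10.62 to 12.25) and Ltf (12.10, 9.69 to 10.22). Csf3r went the other way and was lowest in SP replicate 3 (12.67). The part of other cells in the falls of these 8 genes was not tested. With PBS replicate 2 and SP replicate 3, the arrays of lowest weight, both left out, 22 genes were called, 8 higher and 14 lower. Slc16a1 (-0.68, adjusted p = 0.0589 by limma), Pdk4 (-1.22, adjusted p = 0.0832) and Pdha1 (-0.45, adjusted p = 0.0569) lost their calls with 2 arrays fewer, and Aldoa (-0.38, adjusted p = 0.0176), Pgk1 (-0.79, adjusted p = 0.00649), Ldha (-0.76, adjusted p = 0.00841) and Gys1 (-0.73, adjusted p = 0.000661) gained one.

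**Figure D4:**
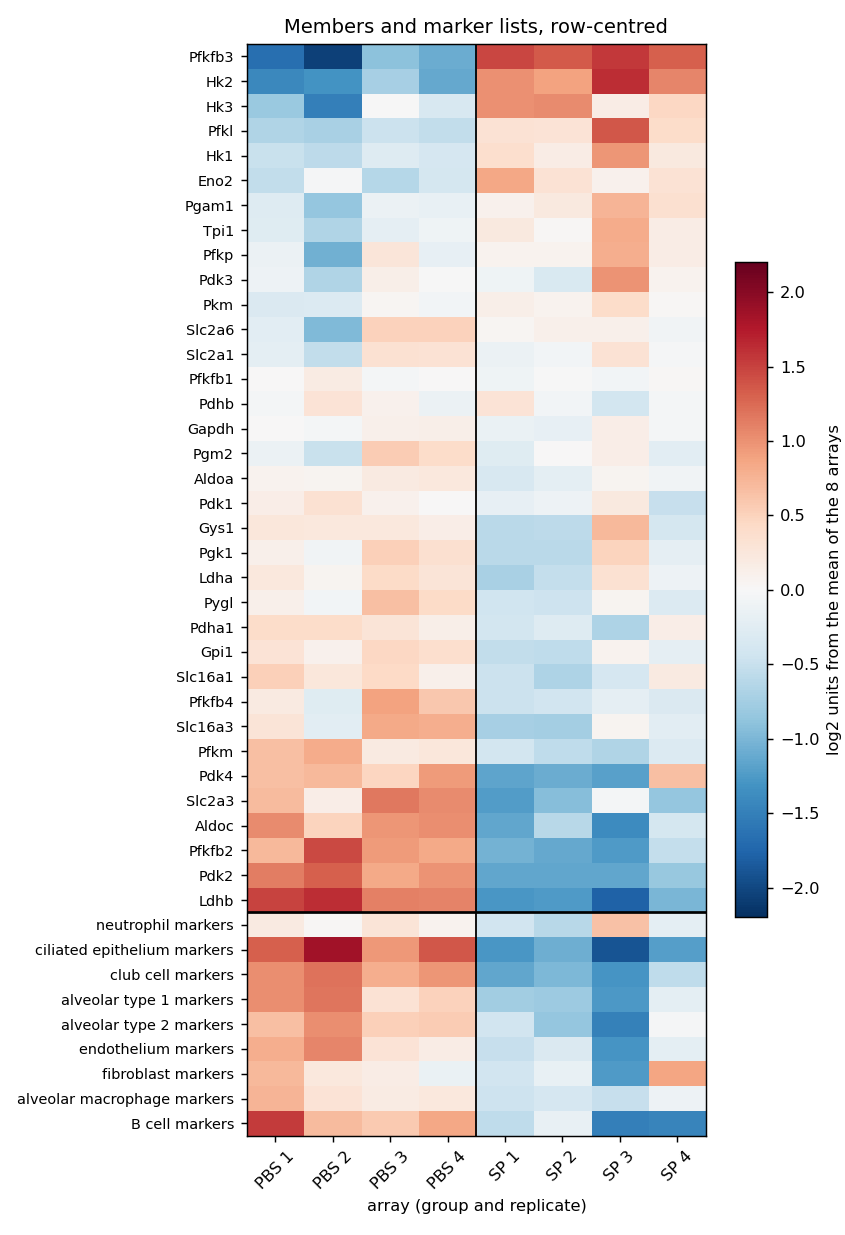
Each of the 35 genes (ordered by difference) and the mean of 9 marker lists (below the line) on the 8 arrays, as log2 units from the mean over all arrays, with red above and blue below it. PBS replicate 2 is darkest blue for Pfkfb3 and Hk3 and darkest red for ciliated epithelium markers, and SP replicate 4 stands apart from the other SP arrays for Pdk4 and fibroblast markers.

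Genes around the pathway were read from lists of related genes. Of 25 other isoforms of glycolysis and transport, 4 rose and 9 fell, against 21.5% and 22.6% of all measurements, with a median difference of -0.04. Slc2a9, a transporter of urate and sugars, rose by 1.32 (SE 0.16, adjusted p = 0.000369), and Slc16a7, which encodes the high-affinity pyruvate and lactate carrier MCT2, fell by 2.45 (SE 0.28, adjusted p = 0.000239). The brightest of this list were Bsg, the chaperone of MCT1 and MCT4, which fell by 0.57 (SE 0.08, adjusted p = 0.000715), and Adpgk, the ADP-dependent glucokinase, which fell by 1.63 (SE 0.52, adjusted p = 0.0334). For Adpgk, SP replicate 3 (10.76) lay among the PBS values (10.57 to 11.17) and the other SP arrays below them (8.25 to 9.21). Of 14 regulators of glycolytic genes, 7 rose and 3 fell, against the same shares of all measurements, with a median of 0.28. Hif1a, the hypoxia-inducible factor subunit, rose from 11.67 ± 0.42 to 12.33 ± 0.18 (0.66, SE 0.20, adjusted p = 0.0295). Egln3, a prolyl hydroxylase that marks it for breakdown, rose by 1.96 (SE 0.39, adjusted p = 0.00451), while Epas1, a relative of Hif1a known from endothelium, fell by 1.83 (SE 0.24, adjusted p = 0.000505). Txnip, which restrains glucose uptake, rose by 0.36 (SE 0.09, adjusted p = 0.0130).

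Downstream of pyruvate, most genes of the citrate cycle list fell. Of 18 genes 13 fell, 4 of them at least 2-fold, and none rose, with a median of -0.70, where 22.6% of all measurements fell and 11.3% at least 2-fold. The mean level of the list was 9.80 to 9.96 in PBS and 8.82 to 9.48 in SP. Among SP arrays it was lowest in replicate 3 and highest in replicate 4, as were the club, alveolar type 1, alveolar type 2 and endothelial markers, whose part in this fall was not tested. Idh2, the mitochondrial isocitrate dehydrogenase, fell by 2.15 (SE 0.35, adjusted p = 0.00163), and the brightest genes fell less, Mdh2 by 0.44 (SE 0.10, adjusted p = 0.0105) and Cs, citrate synthase, by 0.41 (SE 0.08, adjusted p = 0.00468). Of 8 genes of the pyruvate carrier and the rest of the pyruvate dehydrogenase complex, 1 rose and 4 fell, again against 21.5% and 22.6%, with a median of -0.36. Pdp1, the phosphatase that reverses the kinases, fell by 1.23 (SE 0.18, adjusted p = 0.00107), and Dld, the dihydrolipoamide dehydrogenase, rose by 0.65 (SE 0.17, adjusted p = 0.0134). Mpc1, a subunit of the carrier, was not called (-0.34, SE 0.14, adjusted p = 0.0752).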

How the data were processed

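Lung neutrophil mRNA was measured on Affymetrix Mouse Gene 1.1 ST arrays, 4 from SP and 4 from PBS mice, grouped by the titles. The authors deposited log2 values made by robust multi-array averaging of the probe signals with quantile normalization, so values are relative within an array (the submitters' processing notes name Affymetrix Expression Console, RMA and Partek). Bright genes can be compressed. All 8 columns were used, and the microRNA arrays were not used here. The number of arrays limits the precision.

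RefSeq identifiers were matched to symbols of GRCm38.p6 for 19915 of 24625 measurements (80.9%). All were fitted with limma 3.58.1 (R 4.3.3; lmFit and eBayes, no covariates, two-sided) without a filter on low values, with Benjamini-Hochberg adjustment over all of them, after the fit had been tested on simulated data. Ratios of relatives were compared by exact permutation. Promoter windows came from RefSeq (GRCm38.p6) and were searched on both strands with Python 3.11.15. Slc2a3 was not among them.

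Genes and lists were chosen with earlier results of these data known. Every member is described, those called at 2-fold with each sample, and of related lists the 2 brightest genes and the largest 2-fold difference each way. Markers of cell types are given as counts and ranges of levels, apart from the neutrophil markers named for SP replicate 3. Alternatives were the methods' t-test, a robust prior with trend, array weights, a block for the replicate number, centring, a second quantile normalization, dim genes left out, 1 measurement per symbol and each array left out. The methods' t-test is the equal-variance t-test, which for 2 groups equals the one-way ANOVA named in the study's methods. Leaving out both arrays of lowest weight was added after seeing the data. Dixon's ratio (0.829 for 4 samples) was used for single arrays.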

Additional observations from a re-analysis of the deposited data

Results flagged for a closer look

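Single arrays stood apart from the rest of their group in 6 of 70 groups of 4 arrays (35 genes in PBS and in SP) by Dixon's ratio, and chance alone gives about 1 in 20. SP replicate 3 was the highest SP array by a wide gap for 3 genes. Its value was 10.73 for Pfkl (9.68 to 9.78 on the other SP arrays), 10.45 for Pfkp (9.72 to 9.80) and 9.15 for Gys1 (7.83 to 8.04). SP replicate 4 was the highest for the kinases Pdk4, at 8.46 (6.60 to 6.71 on the other SP arrays), and Pdk2, at 6.85 (6.54 to 6.55). PBS replicate 2 was the lowest PBS array for Aldoc, at 7.12 (7.61 to 7.68 on the others).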

How the results depend on the processing

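Of the 21 called genes, 13 kept their call and direction under every setting run that included them. Pfkm and Eno2, among these 13, were not in the fit with dim genes left out. The other 8 (Gpi1, Pfkfb4, Tpi1, Slc16a1, Slc16a3, Pdk4, Pdha1 and Pygl) kept their direction and lost the call under at least 1 setting. Of 14 genes not called, 8 gained a call under some setting. The 13 genes lower in SP became 7 with centred arrays, which adds 0.28 to every difference, and 7 to 17 with 1 array left out (8 without PBS replicate 1, 7 without SP replicate 1, 8 without SP replicate 2 and 17 without SP replicate 3). The count of called genes, 21, ranged from 14 to 27, was 16 under the methods' t-test, and the count at 2-fold ranged from 8 to 12. The 14 of 24 pairs of relatives became 0 under a replicate block, where 4 pairs allow no p below 0.125, and 0 to 15 with 1 array left out (0 without SP replicate 1, 2 or 3). Whether replicate numbers pair the samples was not settled: deviations of same-numbered arrays correlated at 0.016, 0.030, 0.35 and -0.27. Those of differently numbered arrays ranged from -0.36 to 0.28, and 4 arrays per group are too few to decide. With the number as a block limma called 25 genes, 9 higher and 16 lower.

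Differences that changed sign were all of genes not called. Slc2a1 (0.05) was -0.20 with array weights, -0.21 with both low-weight arrays left out, -0.18 after a second quantile normalization, -0.0084 without PBS replicate 1, -0.12 without PBS replicate 2 and -0.042 without SP replicate 3. Slc2a6 (0.09) was -0.17, -0.23 and -0.14 under the first 3 of these and -0.21 without PBS replicate 2. Pdk3 was -0.043 with array weights and -0.13 with both low-weight arrays left out. Pdhb was 0.13 and 0.094 under these settings, 0.18 with centred arrays, 0.24 after a second quantile normalization and 0.013 without SP replicate 3 (-0.22 to 0.013 with each array left out). With centred arrays Pfkfb1 was 0.21, Aldoa 0.0010, Gapdh 0.18 and Pgm2 0.11, and Pdk1 was 0.18 after a second quantile normalization. The ratio of Slc2a1 to Slc2a6 (-0.04) was 0.097 without PBS replicate 2 and 0.013 without SP replicate 1 or SP replicate 2 (-0.11 to 0.097 over all arrays), and that of Slc16a1 to Slc16a3 (0.17) was -0.029 without PBS replicate 4 (up to 0.36 without PBS replicate 2). Apart from centring, the cause was not tested. Genes near background (Pfkfb1, Pfkm and Eno2) are limited by signal.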

Other observations

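Pathways that branch off glycolysis were read from further lists. Of 8 genes of the pentose phosphate pathway, which supplies NADPH for the oxidative burst, 1 rose and 2 fell (21.5% and 22.6% of all measurements did), with a median difference of -0.20 and none at 2-fold. The brightest were Pgd at 12.57 ± 0.22 in PBS and 12.56 ± 0.06 in SP (limma adjusted p = 0.956, SD over 4 samples each) and G6pdx, which encodes the entry enzyme, at 12.10 ± 0.26 and 11.60 ± 0.32 (-0.50, SE 0.19, adjusted p = 0.0580).

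Of 16 further glycogen genes 2 rose and 4 fell, against 21.5% and 22.6% of all measurements, with a median of -0.26. Pygb, the brain-type phosphorylase, fell by 2.33 (SE 0.40, adjusted p = 0.00210 by limma) from 9.96 ± 0.31 to 7.63 ± 0.88. The brightest, Gyg (-0.61, SE 0.25, adjusted p = 0.0725) and Ppp1r3d (-0.03, SE 0.39, adjusted p = 0.953), were not called. Of 8 genes of gluconeogenesis 3 rose and 3 fell, against the same shares of all measurements, with a median of -0.01. Pcx, pyruvate carboxylase, fell by 2.36 (SE 0.27, adjusted p = 0.000230). G6pc3, the glucose phosphatase needed for neutrophil survival, fell by 1.61 (SE 0.21, adjusted p = 0.000433). Fbp1 rose by 1.31 (SE 0.46, adjusted p = 0.0480) from 5.30 ± 0.11 in PBS, not far above background, with SP values spread from 5.45 to 8.00. Pck1 (4.19 ± 0.06 in PBS and 4.50 ± 0.16 in SP) and Fbp2 (4.38 ± 0.04 and 4.78 ± 0.20), which also rose, lay near background in both groups.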
